A study of Arabidopsis thaliana with 16 samples.

Results

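Seedlings that carried an estradiol-inducible artificial microRNA against the TOR kinase gene, but received no estradiol, were compared with seedlings that carried the empty inducible vector and likewise received none. The comparison rests on 8 of the 16 arrays of the series. They were chosen by their titles: lines amiR-tor 9, 17 and 20 without inducer after 3 and after 6 days (6 arrays), and the empty vector (EV, pER8) without inducer at the same days (2 arrays). Each line was set against the empty vector of the same day, which gave 6 matched-day differences. AT3G48710 lay higher in every line on both days, and DFR, a gene of anthocyanin synthesis, and SGP2, a small GTP-binding protein, lay lower, but no gene passed the test across all probe sets.

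All plants were Arabidopsis thaliana in the Col-0 background. Seeds of the silencing lines were germinated on MS medium with hygromycin in continuous light, and at 2 weeks the seedlings were moved to MS plates with 20 µM estradiol or, for the arrays described here, without it. Total RNA of whole seedlings was hybridised to Affymetrix ATH1 arrays, with 1 array per genotype, day and treatment. The 3 lines served as replicates of the silencing construct. Whether a line is 1 transformation event and how many seedlings were pooled is not given in the sources used here, and the empty vector has 1 array per day, so its own spread was not measured. The series title names a gene other than TOR, and every sample's description mentions the empty vector, so the groups rest on the titles and the genotype entries. No probe set was listed for TOR, and its level was not analysed here.

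An artificial microRNA is a designed small RNA that directs cleavage of a chosen transcript through the plant's own microRNA pathway. In pER8 a chimeric transcription factor is made all the time and switches on the inserted sequence once it binds estradiol. TOR is a protein kinase that couples growth, protein synthesis and cell division to nutrients and energy, and that restrains autophagy when nutrients are plentiful. The comparison without inducer shows how the silencing lines and the empty vector differ before the system is switched on.

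Values are log2 expression levels after GCRMA, which corrects the background, normalizes the arrays and sums the probes of each probe set. Of the 8 arrays, 6 had a high signal on the 25S ribosomal RNA control probe set, between 11.38 and 11.99 on the log2 scale. They were both empty-vector arrays, both line 9 arrays and the 6 day arrays of lines 17 and 20. The 3 day arrays of lines 17 and 20 had a low signal, 6.03 and 5.32. On these arrays the 5′ minus 3′ difference of the actin control probe sets was -4.47 and -4.65, against -1.91 to -1.43 on the other 6. The 25S signal and the actin difference thus move with line and day at 3 days, while all 4 arrays of 6 days are of the high kind. The part of the control signals in any 3 day difference was not tested. The 10 kept nuclear photosynthesis genes had a median level between 13.47 and 13.85 on the 8 arrays. The 3 kept root marker genes had one between 5.36 and 6.32, which spans the median of all gene probe sets, 5.60 to 5.65. Of these root markers PYK10 read 13.42 to 13.70 in the lines, whereas EXPA7 read 5.05 to 5.95. How far roots were represented was not tested. No flower or seed marker was on a kept, named probe set. RNA came from whole seedlings, in which fewer cells of a type and less RNA per cell cannot be told apart.

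No probe set differed between the non-induced lines and the empty vector at a Benjamini-Hochberg adjusted p under 0.05 in limma. Of 13701 probe sets tested, 0 passed for 6 days (0%), 0 for 3 days (0%) and 0 for the mean of both days (0%). The lowest adjusted p values were 0.933, 0.463 and 0.154 in the same order. At an unadjusted p under 0.05, the numbers were 265 at 6 days (1.93%), 510 at 3 days (3.72%) and 664 over both days (4.85%), of which 411 were higher in the lines (3%) and 253 lower (1.85%). The median standard error of a difference was 0.32 log2 units for a single day and 0.23 for both days together. The absence of calls depended on line 9: without it, 86 probe sets passed at 3 days, 22 higher and 64 lower, and 33 over both days, 8 higher and 25 lower. Without line 9 the 3 day lines are of the low 25S kind only and the empty vector is of the high kind. With the filter on dim probe sets removed, 116 passed at 6 days, 155 at 3 days and 215 over both days, of which 108, 138 and 186 were dim.

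On both days line 9 differed from the other lines in more probe sets than from the empty vector, whereas lines 17 and 20 differed from each other in fewer. A difference of at least 1 log2 unit, which is 2-fold, was found at 6 days in 847 probe sets between line 9 and the empty vector, 369 for line 17 and 460 for line 20. At the same day line 9 differed that far from line 17 in 933 probe sets and from line 20 in 1234, while lines 17 and 20 differed in 278. At 3 days the counts against the empty vector were 570 for line 9, 949 for line 17 and 918 for line 20, the last 2 from low 25S arrays. Line 9 and line 20 differed in 1283 probe sets at 3 days, which was the highest count of any pair of genotypes on either day.

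All 6 matched-day differences had one direction in 1215 probe sets upwards (8.87%) and in 892 downwards (6.51%). A smallest difference of at least 0.5 was reached by 24 upwards (0.175%) and 35 downwards (0.255%), and one of at least 1 by 1 upwards (0.0073%) and 3 downwards (0.0219%). The last 4 were AT3G48710, which lay higher in the lines, and DFR, AT4G29030 and a probe set without a listed gene, which lay lower. The unlisted probe set was chosen after its values were seen.

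AT3G48710 has no symbol in the gene table. In the empty vector its log2 level was 5.78 at 3 days and 5.83 at 6 days. In lines 9, 17 and 20 it was 7.39, 7.07 and 6.97 at 3 days and 6.99, 6.83 and 6.92 at 6 days. All 6 line arrays lay above both empty-vector arrays, without overlap. The mean difference over both days was 1.22 ± 0.16 (SE; limma adjusted p = 0.154), and within the high 25S arrays it was 1.22 ± 0.25 (SE; limma adjusted p = 0.808). It passed without line 9, with a difference of 1.14 (adjusted p = 0.0339).

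**Figure D1:**
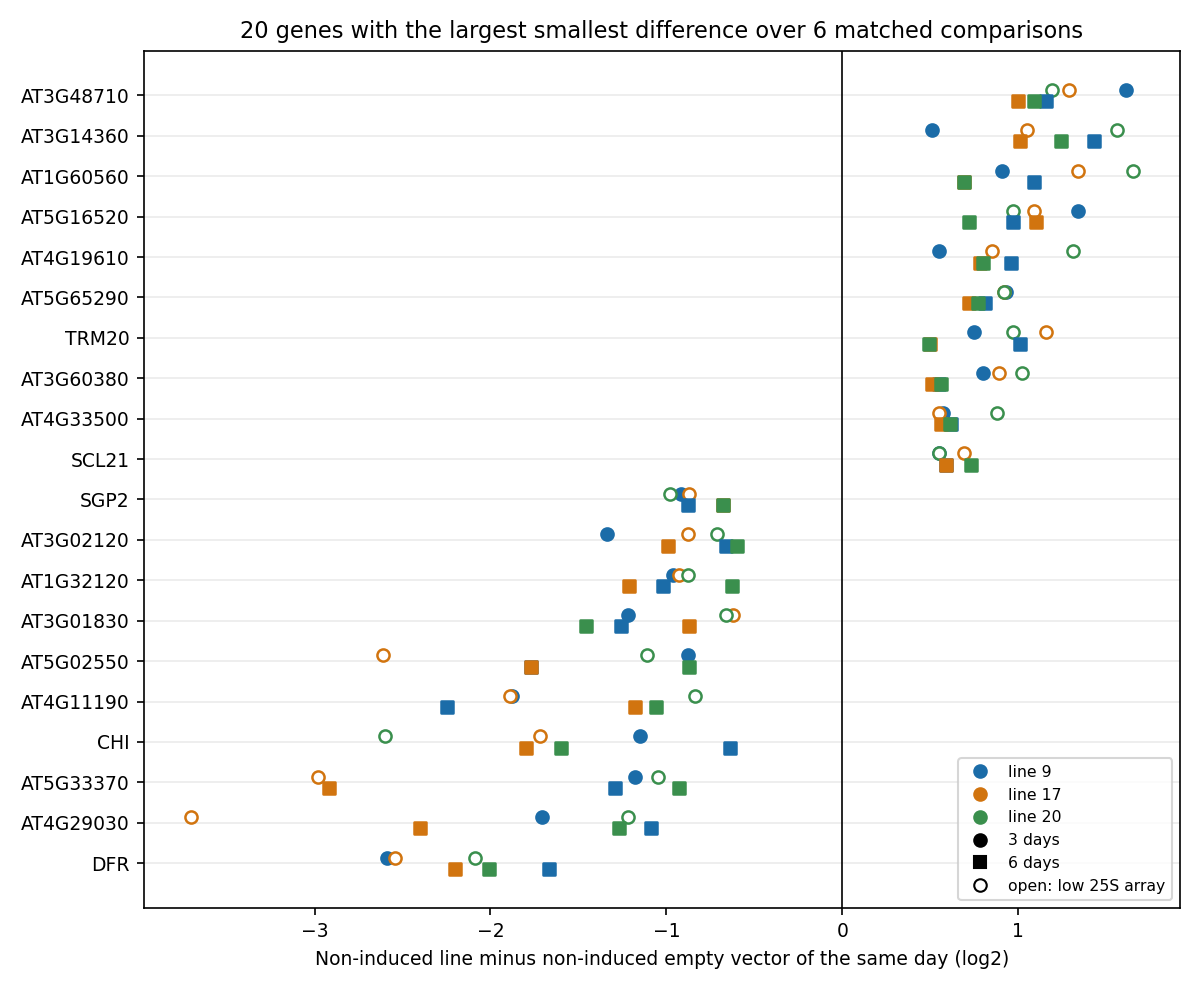
Difference of each non-induced line from the non-induced empty vector of the same day (log2, horizontal axis) for the 10 named genes each way with the largest smallest difference. Colours give the line, circles 3 days, squares 6 days, and open symbols the 2 low 25S arrays; equal values hide each other. AT3G48710 lies between 1.0 and 1.61 above the empty vector, and the DFR differences run from -2.59 to -1.67.

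DFR (AT5G42800) encodes dihydroflavonol reductase, an enzyme of anthocyanin synthesis. The empty vector read 5.11 at 3 days and 4.72 at 6 days on the log2 scale. Lines 9, 17 and 20 read 2.52, 2.57 and 3.02 at 3 days and 3.05, 2.52 and 2.71 at 6 days. The 2 empty-vector arrays were above the log2 value of 4 used as the filter for dim probe sets, and all 6 line arrays were below it, where the floor of the arrays is 2.12. The mean difference was -2.18 ± 0.60 (SE; limma adjusted p = 0.813), and -2.22 ± 0.44 within the high 25S arrays (SE; limma adjusted p = 0.8).

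The remaining flavonoid genes did not share the size of that difference. The list holds 32 loci of the pathway, 7 with a named probe set and 4 kept, and 0 of the 4 passed limma's test in either direction. The median difference over both days was -0.38, against 0 over all 13701 probe sets. UF3GT, a glycosyltransferase of anthocyanins, differed by -0.51 ± 0.52 (SE), with the empty vector at 4.19 on both days and the lines between 3.03 and 4.19. UGT78D2 and UGT78D1, glycosyltransferases of flavonoids, differed by -0.24 ± 0.28 and -0.06 ± 0.47 (SE). Each of these 3 differences was smaller than its standard error.

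In the empty vector AT4G29030 read 8.71 at 3 days and 8.87 at 6 days. It read 7.0, 5.01 and 7.49 in lines 9, 17 and 20 at 3 days and 7.78, 6.47 and 7.60 at 6 days. Every line array lay below both empty-vector arrays, and line 17 was the lowest at both days. The mean difference was -1.90 ± 0.60 (SE; limma adjusted p = 0.885).

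The unlisted probe set read 5.60 and 5.91 in the empty vector, 3.91, 3.91 and 3.98 in lines 9, 17 and 20 at 3 days, and 4.44, 4.16 and 4.24 at 6 days. Its differences were the most even of these 4, from -1.75 to -1.47. The mean was -1.65 ± 0.24 (SE; limma adjusted p = 0.154). Within the high 25S arrays it was -1.63 ± 0.14 (SE; limma adjusted p = 0.0584), the lowest adjusted p of that fit, and it passed without line 9 (adjusted p = 0.00657).

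**Figure D2:**
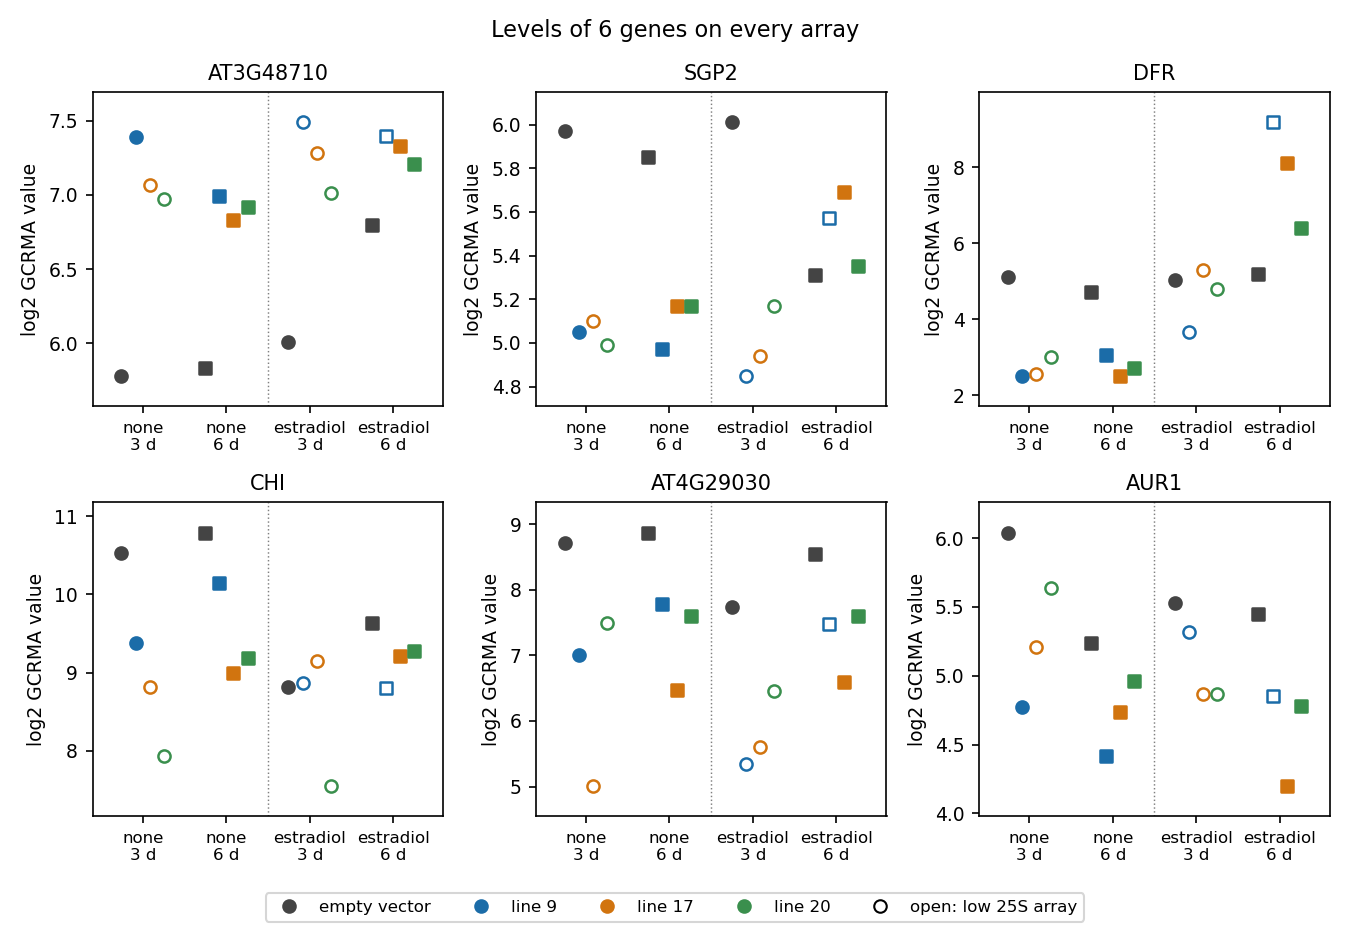
log2 GCRMA level of 6 genes on all 16 arrays, without estradiol (left of the dotted line) and with it (right), at 3 and 6 days; each point is 1 array, dark grey is the empty vector and open symbols are low 25S arrays. Without estradiol the empty vector lies at one end on each day in all 6 panels, which was a condition for naming these genes. For DFR with estradiol at 6 days the lines lie above the empty vector.

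Among genes with a symbol, the 10 with the highest moderated statistics upwards over both days included genes of signalling, the cytoskeleton, plastids and metabolism. They and the 10 downwards were taken from probe sets with all 6 differences in one direction, so that direction was fixed by the choice. Over all probe sets 8.87% had one direction upwards and 6.51% downwards. SCL21, a GRAS family protein of phytochrome A signalling, read 5.25 and 5.33 in the empty vector and 5.80 to 6.06 in the 6 line arrays. Its difference was 0.62 ± 0.15 (SE; limma adjusted p = 0.695). All line arrays were above both empty-vector arrays.

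TRM20 and TRM28 belong to the TON1 Recruiting Motif family, whose members bind proteins that organise cortical microtubules. TRM20 read 7.39 and 6.94 in the empty vector, 8.14, 8.55 and 8.36 in lines 9, 17 and 20 at 3 days, and 7.95, 7.44 and 7.43 at 6 days. Each line lay above the empty vector of its day, by 0.49 to 1.16, and the difference was 0.81 ± 0.20 (SE; limma adjusted p = 0.695). TRM28 was dim, at 3.99 and 3.81 in the empty vector and 4.45 to 5.45 in the lines, with a difference of 0.98 ± 0.28 (SE; limma adjusted p = 0.816).

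Several of these genes act in plastids or metabolism. CAF1 (AT2G20020), a splicing factor of chloroplast introns, differed by 0.67 ± 0.17 (SE), from 7.01 and 6.77 in the empty vector to between 7.18 and 7.93 in the lines. AAE15, an acyl-activating enzyme, and THIC, which makes the pyrimidine part of thiamine, each differed by 0.59 ± 0.18 (SE). F2KP, the bifunctional enzyme that makes and degrades fructose-2,6-bisphosphate, differed by 0.45 ± 0.14 (SE), from 9.41 and 9.51 in the empty vector to between 9.59 and 10.10. The limma adjusted p values of these 4 genes lay between 0.763 and 0.885. That every line lay above the empty vector of its day was a condition for naming them.

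ATERDJ2B, a J-domain protein of the endoplasmic reticulum, differed by 0.64 ± 0.17 (SE), the MAP kinase ATMPK8 by 0.43 ± 0.15 (SE) and NTMC2T6.1 by 0.62 ± 0.21 (SE). Their adjusted p values in limma were 0.813, 0.951 and 0.993. The smallest of the 6 differences was 0.28 for ATERDJ2B, 0.25 for ATMPK8 and 0.10 for NTMC2T6.1, so line and empty vector came close on single arrays.

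In the other direction, SGP2, a small GTP-binding protein, had the lowest adjusted p among the named genes with a symbol. It read 5.97 and 5.85 in the empty vector, 5.05, 5.10 and 4.99 in lines 9, 17 and 20 at 3 days, and 4.97, 5.17 and 5.17 at 6 days. All line arrays lay below both empty-vector arrays, with differences from -0.98 to -0.68. The difference was -0.84 ± 0.14 (SE; limma adjusted p = 0.269), and -0.77 ± 0.20 within the high 25S arrays (SE; limma adjusted p = 0.818).

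CHI (AT2G43570), listed as a putative chitinase and not the chalcone isomerase of the same abbreviation, read 10.53 and 10.79 in the empty vector, 9.38, 8.81 and 7.93 in lines 9, 17 and 20 at 3 days, and 10.15, 8.99 and 9.19 at 6 days. The difference was -1.58 ± 0.47 (SE; limma adjusted p = 0.841), and the line arrays ran from 7.93 to 10.15. GRX480, a glutaredoxin that interacts with TGA transcription factors, read 6.17 and 7.37 in the empty vector and 4.88 to 5.87 in the lines, a difference of -1.29 ± 0.43 (SE; limma adjusted p = 0.951).

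PRX52, a class III peroxidase, read 8.15 and 8.50 in the empty vector. It read 5.80, 6.25 and 6.33 in lines 9, 17 and 20 at 3 days and 8.24, 6.46 and 6.39 at 6 days, so line 9 at 6 days was near the empty vector while the other 5 arrays were not. The difference was -1.75 ± 0.56 (SE; limma adjusted p = 0.885). TBL39, of the family that acetylates wall polysaccharides, differed by -0.69 ± 0.24 (SE), and the serine carboxypeptidase-like gene scpl31 by -0.97 ± 0.35 (SE).

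The Aurora kinase genes AUR1 and AUR2 lay lower in each of the 6 matched-day differences, without passing the test. For AUR1 that direction was a condition for naming it. AUR1, an Aurora kinase of mitosis, read 6.04 and 5.24 in the empty vector, 4.77, 5.21 and 5.64 in lines 9, 17 and 20 at 3 days and 4.42, 4.74 and 4.96 at 6 days. The line arrays at 3 days overlapped the empty vector of 6 days, and the difference was -0.68 ± 0.26 (SE; limma adjusted p = 0.993). AUR2, its close relative, differed by -0.73 ± 0.31 (SE; limma adjusted p = 1.0), and the histone H2B gene HTB1 by -0.60 ± 0.22 (SE). SP1L2, a SPIRAL1-like protein of microtubules, differed by -1.14 ± 0.40 (SE). SP1L2 was dim, at 4.60 and 4.41 in the empty vector and 2.70 to 4.06 in the lines. Of 30 listed cell cycle loci 3 were kept, with a median of -0.68, and 0 passed in either direction. The third, PRL, a subunit of the DNA replication helicase, differed by 0.07 ± 0.22 (SE).

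The other genes with the largest smallest difference have no symbol in the gene table. Upwards they were AT3G14360, AT1G60560, AT5G16520, AT4G19610, AT5G65290, AT3G60380 and AT4G33500, whose mean differences ran from 0.63 for AT4G33500 to 1.13 for AT3G14360. AT3G60380 had the lowest adjusted p among them: it read 5.86 and 5.80 in the empty vector, 6.66, 6.75 and 6.88 in lines 9, 17 and 20 at 3 days, and 6.35, 6.31 and 6.36 at 6 days, a difference of 0.72 ± 0.12 (SE; limma adjusted p = 0.269). AT5G65290 read 4.90 and 4.85 in the empty vector and 5.57 to 5.83 in the lines, a difference of 0.84 ± 0.21 (SE; limma adjusted p = 0.695).

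Downwards they were AT5G33370, AT5G02550, AT4G11190, AT1G32120, AT3G01830 and AT3G02120, with mean differences from -1.72 for AT5G33370 to -0.86 for AT3G02120. AT1G32120 had the lowest adjusted p among them, 0.431 in limma, with 4.46 and 4.74 in the empty vector and 3.5 to 4.11 in the lines. AT5G33370 was at 5.99 and 5.74 in the empty vector and at 3.01 and 2.82 in line 17, whereas lines 9 and 20 lay between 4.45 and 4.94. AT3G01830 was dim, at 3.34 and 4.2 in the empty vector and 2.12 to 3.33 in the lines, where the floor of the arrays is 2.12.

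At 6 days, where all 4 arrays share the high 25S signal, 5 genes were named each way by the moderated statistic of that day. Upwards they were TRM28, AAE15, THIC, SCL21 and XPO1B, a nuclear exportin. XPO1B read 3.33 in the empty vector and 4.03, 3.74 and 3.95 in lines 9, 17 and 20, a difference of 0.58 ± 0.22 (SE; limma adjusted p = 1.0). Downwards they were SGP2, ARR15, DLAH, HHP2 and CML42. ARR15, a type-A response regulator of cytokinin signalling, read 4.91 in the empty vector and 3.69, 3.70 and 3.70 in lines 9, 17 and 20, a difference of -1.21 ± 0.21 (SE; limma adjusted p = 0.933). These line values were under the log2 value of 4 used as the filter for dim probe sets.

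At 3 days ARR15 read 3.70 in the empty vector and 4.14, 3.97 and 3.85 in lines 9, 17 and 20, so the order of line and empty vector was turned. The same held for DLAH, a DAD1-like acylhydrolase, and for CML42, a calmodulin-like protein. For these 3 genes it was the empty-vector level that differed most between the days: from 3.70 at 3 days to 4.91 at 6 days for ARR15, from 4.90 to 5.99 for DLAH, and from 6.72 to 7.45 for CML42. DLAH read 5.16 on 5 of the 6 line arrays. It also read 5.16 on both empty-vector arrays with estradiol, so this value was not particular to the lines. HHP2, of the heptahelical protein family, differed by -0.67 ± 0.20 at 6 days (SE; limma adjusted p = 1.0) and by 0.14 ± 0.20 at 3 days (SE).

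At 3 days the genes named upwards were TRM20, CAF1, ATERDJ2B, F2KP and Phox3. Phox3, of the family with octicosapeptide domains, read 5.75 in the empty vector and 6.59, 6.57 and 7.32 in lines 9, 17 and 20, a difference of 1.08 ± 0.33 (SE; limma adjusted p = 1.0). At 6 days the empty vector read 6.55 and the lines 6.57, 6.57 and 6.68. Downwards at 3 days were SGP2, DFR, CHI, PRA1.B1 and BOB1.

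PRA1.B1, a prenylated RAB acceptor of membrane traffic, read 8.69 in the empty vector and 7.72, 7.94 and 7.96 in lines 9, 17 and 20, a difference of -0.82 ± 0.27 (SE; limma adjusted p = 1.0). BOB1, a small heat shock protein with a NudC domain, read 9.42 in the empty vector and 8.89, 8.86 and 8.88 in the lines, a difference of -0.54 ± 0.19 (SE; limma adjusted p = 1.0). At 6 days the differences were 0.03 ± 0.27 for PRA1.B1 and 0.04 ± 0.19 for BOB1 (SE). At 3 days line 9 is on a high 25S array and lines 17 and 20 are on low ones. That every line lay below the empty vector at 3 days was a condition for naming both genes.

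The test of whether a difference depended on the day called 0 of 13701 probe sets (limma; 0%), and 124 had an unadjusted p under 0.05 (0.905%). The standard error of that contrast had a median of 0.46 log2 units.

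Within the 10 high 25S arrays of the series, a fit with 4 line arrays (line 9 at both days, lines 17 and 20 at 6 days) against the 2 empty-vector arrays likewise made 0 calls (limma; 0%), while 808 probe sets had an unadjusted p under 0.05 (5.9%). In these 4 differences 1858 probe sets had one direction upwards (13.6%) and 1625 downwards (11.9%). For the 10 named genes each way with the largest smallest difference, the values within the high 25S arrays ran from 0.54 to 1.22 upwards and from -2.22 to -0.77 downwards, against 0.62 to 1.22 and -2.18 to -0.84 over all 8 arrays. The 4 differences of the high 25S arrays were among the 6 that chose these 20 genes, so their direction there was fixed by the choice and only their size is described.

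Gene lists held no call either. The lists of nuclear genes had 772 entries. A named probe set existed for 164 of them and 143 passed the filter, so the lists describe a minor part of each pathway. At an unadjusted p under 0.05 the lists are read against the 4.85% of all probe sets. The lists for flowering time, phosphate starvation, flower, seed and pollen had 0 kept genes. The median over both days of all probe sets was 0.

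**Figure D3:**
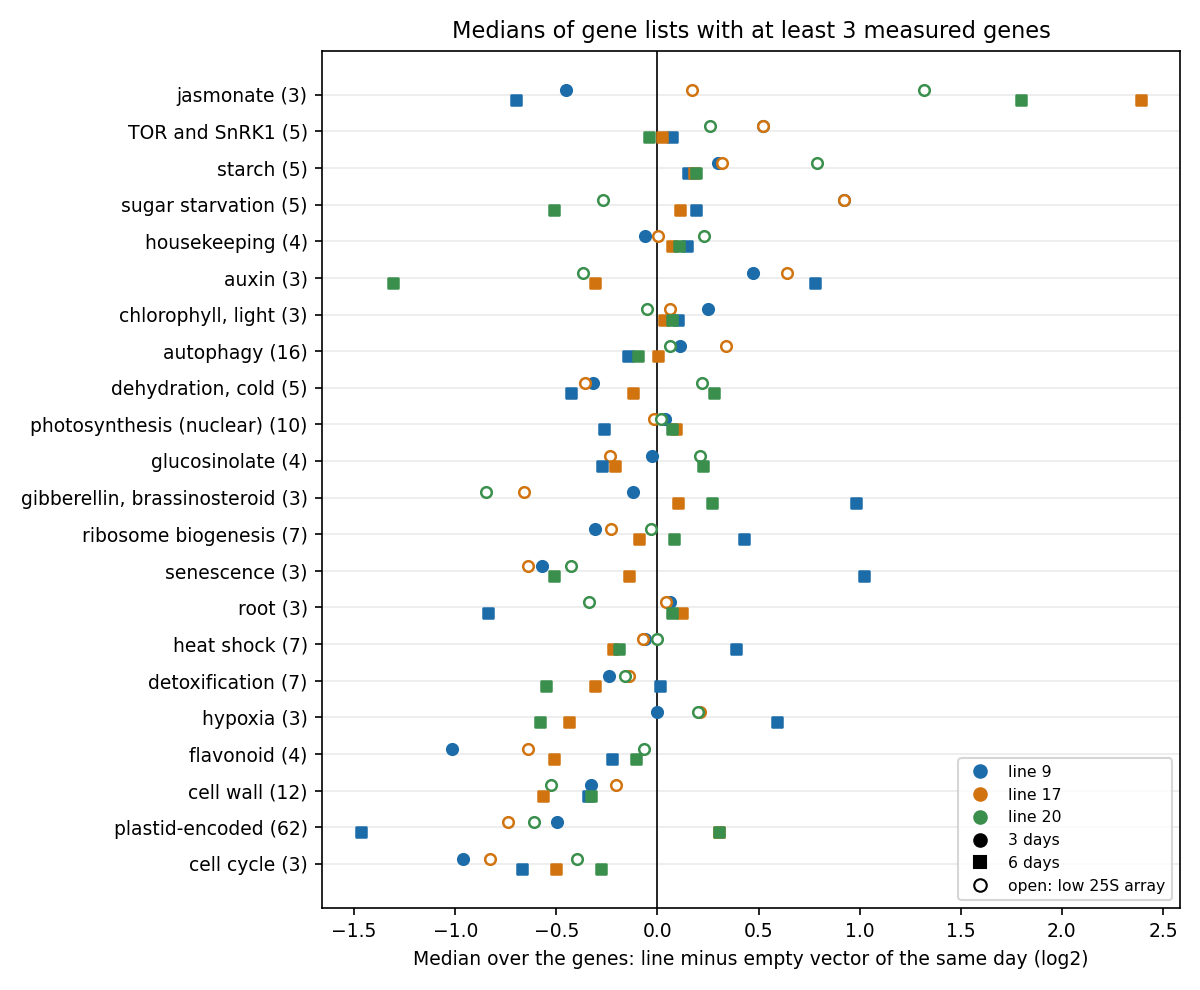
Median difference from the empty vector of the same day (log2, horizontal axis) for each list with at least 3 kept genes (number in brackets), 1 point per non-induced line array; open symbols are low 25S arrays and equal values hide each other. The cell wall, cell cycle and flavonoid medians lie below 0 on all 6 arrays, and the starch median lies above 0 on all 6. The plastid-encoded median is -1.46 in line 9 at 6 days but 0.30 in lines 17 and 20.

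Most of the kept cell wall genes lay lower in the lines, and none passed the test. Of 38 loci 12 were kept: 11 were lower and 1 higher over both days, 0 passed in either direction, and 5 were lower in all 6 differences, as were 6.51% of all probe sets. At an unadjusted p under 0.05, 1 of the 12 was lower and 0 were higher. The median was -0.46, against 0 over all probe sets. XTH16, a xyloglucan endotransglucosylase, read 8.69 and 8.73 in the empty vector, 8.06, 8.18 and 8.09 in lines 9, 17 and 20 at 3 days and 8.04, 7.99 and 8.03 at 6 days, without overlap, a difference of -0.64 ± 0.26 (SE; limma adjusted p = 0.994). XTH18, of the same family, differed by -0.80 ± 0.40 (SE), with line 20 lowest at 8.90 and 8.96 against 10.15 and 10.70 in the empty vector. The expansins EXPA15 and EXPA4, which loosen walls, differed by -0.73 ± 0.41 and -0.80 ± 0.67 (SE).

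Genes of TOR and SnRK1 signalling were measured by 5 kept members of 21 loci, with 0 passing and a median of 0.36. RAPTOR1, the partner that presents substrates to TOR, read 5.12 and 5.54 in the empty vector, 5.64, 5.84 and 5.94 in lines 9, 17 and 20 at 3 days and 6.09, 5.79 and 5.67 at 6 days. Every line exceeded the empty vector of its day by 0.13 to 0.82, and the difference was 0.50 ± 0.20 (SE; limma adjusted p = 0.994). It was 0.69 at 3 days and 0.31 at 6 days. AT4G16360 differed by 0.39 ± 0.26 (SE), AT2G28060 by -0.32 ± 0.23 (SE), AT5G63190 by 0.35 ± 0.25 (SE) and AKINBETA1, a regulatory subunit of SnRK1, by -0.06 ± 0.32 (SE).

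Autophagy genes, the process that TOR restrains, did not stand to one side. Of 41 loci 16 were kept: 8 were higher, 8 lower and 0 passed, with a median of 0.00 and a range from -0.33 for ATG8G to 0.29 for AT3G61960. ATG8G, a ubiquitin-like protein of autophagosomes, differed by -0.33 ± 0.26 (SE), and its relative ATG8B by 0.26 ± 0.21 (SE).

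Ribosome biogenesis genes had 7 kept members of 25 loci, with a median of -0.08 and 0 calls. AT5G15550 differed by -0.30 ± 0.18 and AT5G41190 by -0.18 ± 0.20 (SE). Nuclear photosynthesis genes had 10 kept members of 55, with 5 higher, 5 lower, 0 passing and a median of -0.01. PRK, phosphoribulokinase of the Calvin cycle, differed by 0.16 ± 0.16 (SE), and LHCB4.3, a light-harvesting protein, by -0.25 ± 0.30 (SE). The 3 kept genes of chlorophyll and light had a median of 0.03, with HEMB1 and PORB, enzymes of chlorophyll synthesis, at 0.09 ± 0.18 and 0.03 ± 0.36 (SE).

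Sugar starvation genes (5 kept of 21) had a median of 0.24 over both days and 0 calls. The median was 0.51 at 3 days and -0.08 at 6 days. BZIP53, a transcription factor, differed by -0.34 ± 0.20 and MCCB, a subunit of leucine breakdown, by 0.28 ± 0.27 (SE). Starch genes (5 kept of 31) had a median of 0.26. PWD, a glucan water dikinase of starch breakdown, differed by 0.64 ± 0.35 and DPE1, a glucanotransferase, by 0.26 ± 0.15 (SE). At 6 days PWD differed by 0.86 in line 9 but by -0.03 and 0.03 in lines 17 and 20. No list among these held a gene that passed.

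Genes of stress and jasmonate responses were uneven across the lines. The jasmonate list had 3 kept genes: THI2.1, a thionin, differed by -1.95 ± 1.34 (SE), with 6.2 and 7.40 in the empty vector, 4.74, 3.36 and 7.55 in lines 9, 17 and 20 at 3 days and 4.24, 3.82 and 5.41 at 6 days. PDF1.2b, a defensin, differed by 0.92 ± 0.66 (SE), and the related PDF1.2 by 1.05 ± 0.94 (SE). In lines 9, 17 and 20 PDF1.2b differed by -0.03, 0.66 and 1.24 at 3 days and by -0.54, 2.39 and 1.80 at 6 days. STZ, a zinc finger repressor of stress responses, was at 9.29 in the empty vector and 7.47, 7.35 and 7.81 in lines 9, 17 and 20 at 3 days, but at 10.02 against 9.79, 10.24 and 10.30 at 6 days. COR15A, a cold-regulated protein, differed by -0.55 ± 0.57 (SE), and line 20 was above the empty vector at both days while lines 9 and 17 were below it.

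Smaller lists are given by their 2 genes of lowest p. In defence they were GRX480, above, and SAG101 at -0.03 ± 0.25. In senescence WRKY53 differed by -0.38 ± 0.39 and WRKY6 by -0.10 ± 0.38, both transcription factors. In heat shock AT5G48570 differed by 0.36 ± 0.20 and AT5G51440 by -0.48 ± 0.27. Each of these errors is a limma standard error, and 0 of the members of these lists passed.

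In hypoxia PDC2, pyruvate decarboxylase, differed by 0.46 ± 0.29 and AT4G17260 by -0.32 ± 0.16. In detoxification NQR differed by -0.22 ± 0.15 and NDB2, an alternative NADH dehydrogenase of mitochondria, by -0.25 ± 0.20. The hormone lists gave GH3.3 at -0.59 ± 0.99 and HAT2 at 0.22 ± 0.47 for auxin. For cytokinin they gave ARR15, whose direction turned between the days, at -0.46 ± 0.15 over both days, and RR16 at 0.06 ± 0.31. The gibberellin receptors GID1B and GID1C were at -0.24 ± 0.26 and 0.07 ± 0.30. None of these exceeded the threshold, and the errors are limma standard errors.

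The lists for mineral nutrition, the clock and glucosinolates had 1 to 4 kept genes each and 0 calls. GI, of the circadian clock, differed by 0.40 ± 0.28, PYE and AT3G13610 of iron supply by -0.21 ± 0.30 and -0.15 ± 0.44, BGLU28 and AT1G04770 of the sulfur list by -0.60 ± 0.61 and -0.22 ± 0.26, and AT1G68670 of the nitrogen list by -0.03 ± 0.20 (all SE). BCAT4 and UGT74B1 of glucosinolate synthesis differed by -0.08 ± 0.17 and -0.10 ± 0.38 (SE). The root markers PYK10 and EXPA7 differed by 0.10 ± 0.15 and -0.47 ± 0.57, and the housekeeping genes AT2G28390 and AT2G32170 by 0.23 ± 0.13 and 0.18 ± 0.14 (SE).

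Transcripts encoded in the plastid genome set line 9 apart at 6 days. Of 69 plastid loci on a listed probe set 62 were kept, 0 passed and 0 were lower in all 6 differences. At 6 days 36 of the 62 were at least 1 log2 unit below the empty vector in line 9, against 3.34% of all probe sets, with a median of -1.46. In lines 17 and 20 at the same day none was that far below, and both medians were 0.30. At 3 days 21, 26 and 24 of the 62 were at least 1 below in lines 9, 17 and 20, with medians of -0.49, -0.74 and -0.61. The genes that lay this far below were only partly the same. In lines 9, 17 and 20, atpF differed by -2.14, -2.6 and -2.79. In the same order psaB differed by -1.3, 0.21 and 0.22, but psbC by -0.37, -7.69 and -7.55. The 3 day arrays of lines 17 and 20 have the low ribosomal RNA control signal, whose part in these differences was not tested. The shares of all probe sets at 3 days were 2.64%, 4.47% and 4.73%, and the medians of all probe sets lay between -0.01 and 0.02 on the 6 arrays.

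**Figure D4:**
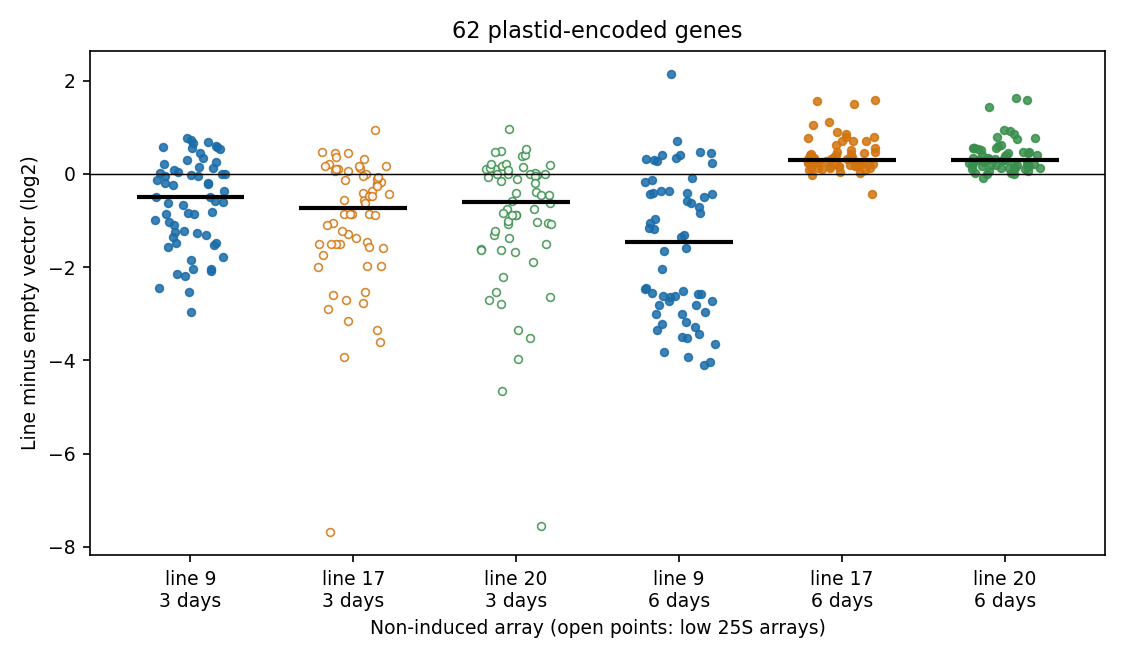
Difference of each non-induced line array from the empty vector of the same day (log2, vertical axis) for the 62 kept plastid-encoded genes; each point is 1 gene, bars are medians and open points mark low 25S arrays. Line 9 has its median at -1.46 at 6 days, and lines 17 and 20 theirs at 0.30.

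Line 9 is of the high 25S kind at both days. accD, the plastid-encoded subunit of acetyl-CoA carboxylase, read 6.74 and 6.22 in the empty vector, 3.78 and 2.57 in line 9, 6.19 and 6.40 in line 17 and 6.15 and 7.01 in line 20, at 3 and 6 days respectively. rpoC1, a subunit of the plastid RNA polymerase, read 9.09 and 8.59 in the empty vector, 7.06 and 4.50 in line 9, 8.62 and 8.72 in line 17 and 8.69 and 9.14 in line 20. petL, a small subunit of the cytochrome b6f complex, read 4.38 and 2.79 in line 9 and at least 6.22 on the other 6 arrays. In these 3 genes line 9 was low at both days and the other 3 genotypes were not.

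rps3, a ribosomal protein of the plastid, went the other way, at 0.45 ± 0.20 over both days (SE; limma adjusted p = 1.0). psbN, a small photosystem-associated protein, read 6.24 and 5.60 in the empty vector and 3.8, 3.08 and 2.72 in lines 9, 17 and 20 at 3 days, but 2.31, 5.17 and 5.71 at 6 days. Its low values at 3 days cover both kinds of array. The labels name no step of RNA preparation that differed between these arrays.

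The empty vector was not the genotype that stood apart most often. For each genotype, probe sets were counted in which its arrays lay outside those of the other 3 genotypes on the same side at both days, by at least 1 log2 unit, with no test. The empty vector did so in 4 of 13701 probe sets, line 17 in 7, line 9 in 18 and line 20 in 21. With a gap of at least 0.5 the counts were 59 for the empty vector, 40 for line 17, 174 for line 9 and 173 for line 20. Of the 11 probe sets in which line 9 was the lowest by at least 1, 9 were plastid-encoded. Among the 13701 kept probe sets, 62 plastid-encoded genes were represented. Line 9 was the lowest at both days, by any gap, in 19 of these 62.

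**Figure D5:**
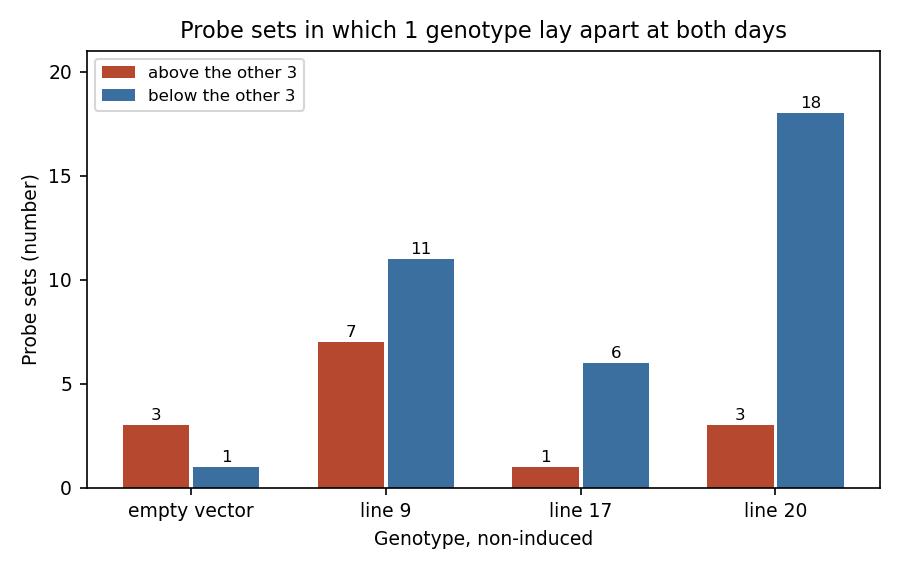
Number of probe sets (vertical axis, from 0) in which the non-induced arrays of 1 genotype lay at least 1 log2 unit above or below those of the other 3 genotypes at both days. The empty vector has 3 above and 1 below, and line 20 has 18 below.

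Among genes with a locus, line 9 lay highest in AT5G14720 (7.44 and 7.87 at 3 and 6 days, against 5.38 to 6.85 in the other 3 genotypes), AT1G54920 (7.84 and 8.0) and AT2G01480 (5.66 and 6.52). Line 17 lay highest in AT1G43590, at 4.74 and 4.2 against 2.12 to 3.02 elsewhere, and in AT1G78450 and AT2G16380. Its lowest genes were AT5G33370, AT4G29030 and AT2G20870, the last at 3.70 and 4.31 against 5.12 to 7.46 in the other 3 genotypes. In AT5G33370 and AT4G29030 the line 17 values thus carry much of the mean difference described above.

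Line 20 lay highest in AT3G15310, at 4.33 and 4.96 against 2.19 to 3.53 elsewhere, AT5G19970 (4.81 and 5.08) and AT1G60590 (7.08 and 6.09). It lay lowest in AT1G02660, at 6.45 and 7.01 against 8.43 to 8.92, AT1G50040 (5.72 and 5.61) and AT3G19680 (7.87 and 8.14). These differences were found in single lines and not in all 3.

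The induced arrays hold the same 4 genotypes with estradiol and share no array with the comparison without it. All 3 induced lines at 3 days and line 9 at 6 days have low 25S signals, while the induced empty vector has high ones. Of the 24 probe sets that were at least 0.5 higher in all 6 non-induced differences, 24 were also higher on average in the induced lines than in the induced empty vector at 3 days and 18 at 6 days. Over all probe sets the corresponding shares were 54.6% and 46.9%. Of the 35 that were lower, 26 were lower at 3 days and 21 at 6 days, where the shares of all probe sets were 44.6% and 52.4%. The mean difference of the induced lines, tested in the same fit, was called in 4 probe sets over both days (0.0292%).

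AT3G48710 lay higher with inducer too: the induced lines 9, 17 and 20 lay 1.48, 1.27 and 1.0 above the induced empty vector at 3 days and 0.60, 0.53 and 0.41 above it at 6 days. SCL21 lay 0.39 to 0.94 above it in all 6 induced differences. SGP2 had differences from -1.16 to -0.84 at 3 days but from 0.04 to 0.38 at 6 days. The unlisted probe set was likewise lower at 3 days, from -1.15 to -0.51, and higher at 6 days, from 0.27 to 1.12.

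DFR had the other direction with inducer at 6 days. It differed from the induced empty vector by -1.37, 0.26 and -0.23 in lines 9, 17 and 20 at 3 days, and by 3.98, 2.92 and 1.2 at 6 days. The same gene was thus lower than the empty vector in each line without inducer at 6 days and higher in each line with it. AT4G29030 stayed below the empty vector in all 6 induced differences, from -2.4 to -0.95.

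Across all 13701 probe sets the mean differences with and without inducer had a Pearson r of 0.67 at 3 days, 0.13 at 6 days and 0.47 over both days. These are descriptions across probe sets, which are not independent, from separate arrays of the same lines. At 3 days the comparisons also share low 25S arrays in the lines and high ones in the empty vector.

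The 18 genes with a symbol that had been named for their response to induction include some with higher and some with lower levels in the induced lines, so their median and counts do not show whether they were shifted without inducer. They were chosen from results on these arrays, among them the non-induced ones, so their values are a description. Over both days 8 were higher and 10 lower, 0 passed, and the median was -0.05, against 1.0 for the induced lines. SAG29, a sugar transporter of the SWEET family, differed by -0.09 ± 0.87 (SE), SWEET10 by -0.01 ± 0.51 (SE) and APL3, a subunit of the enzyme that supplies ADP-glucose for starch, by 0.21 ± 0.53 (SE). With inducer the mean differences of these 3 genes from the induced empty vector were 2.08, 1.36 and 1.76.

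In SAG29, SWEET10 and APL3 line 20 had the highest level of the 4 genotypes without inducer at both days. SAG29 read 5.82 and 5.47 in line 20 against 4.71 to 5.36 elsewhere, SWEET10 4.80 and 4.65 against 3.5 to 4.24, and APL3 6.41 and 6.13 against 5.25 to 5.62. ATG8H differed by -0.23 ± 0.31, AAE16 by -0.22 ± 0.25, SBT3.5 by -0.44 ± 0.32, ALPHA-VPE by -0.57 ± 0.38 and AR791 by 0.17 ± 0.39 (all SE). Among genes with lower levels in the induced lines, TBL36 differed by -0.58 ± 0.26, Fes1B by -0.53 ± 0.52, TUB5 by 0.28 ± 0.22, PRL by 0.07 ± 0.22 and UGT85A4 by 0.37 ± 0.32 (all SE). TBL36 was below the empty vector in all 6 non-induced differences, from -1.1 to -0.34.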

How the data were processed

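The deposited values are log2 expression values made by the authors with GCRMA (background correction, normalization and summary per probe set), per the submitters' processing notes, with no version stated there. They were used without further normalization. Of 22746 gene probe sets, 9045 that did not reach log2 4 in at least 3 of 16 arrays were left out, as were 64 controls, leaving 13701. Names came from the platform annotation (13513 probe sets with 1 gene, 503 with several, 8730 not listed), updated through RefSeq TAIR10.1, which gave 7333 kept probe sets a locus and 1066 a symbol.

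The main model, fitted with limma 3.58.1 under R 4.3.3, held 8 group means of the 16 arrays and left 8 residual degrees of freedom. The threshold was 0.05 for the two-sided p after Benjamini-Hochberg adjustment. Each empty-vector group holds 1 array, assumed to vary like the lines. The spread is that between lines and may include technical spread. The high 25S fit used 10 arrays, with day as a covariate and 5 residual degrees of freedom. The fit was tested on simulated data.

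Named were genes with a symbol by the moderated statistic in one direction (10 each way over both days, 5 per day), the 10 each way with the largest smallest difference, 2 per list, 3 each way per line standing apart, and the 18 induction genes. A gene is shown by its brightest probe set. The members and lists were chosen with earlier results of these data known. The number of arrays limits the precision. No 2 arrays were copies (highest r 0.997). Alternatives were filters, normalizations, array subsets, a 25S covariate, trend and robust variances, line blocks and leaving out each line. Same-line deviations at 3 and 6 days correlated at 0.11, 0.17 and 0.44 for lines 9, 17 and 20. The fit with line as a random block gave a correlation of 0.041. The main fit held no term for this pairing and took the arrays of a line as independent.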

Additional observations from a re-analysis of the deposited data

Results flagged for a closer look

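For 7 named genes every line lay on one side of the empty vector at 3 days and on the other at 6 days. The limma test of the difference between days passed for none of them (each adjusted p = 1.0), nor for any of 13701 probe sets. The difference at 6 days minus that at 3 days was -1.5 for ARR15, -1.21 for DLAH, -1.16 for CML42, -1.70 for AT3G13610, 0.77 for AT5G41190, 1.06 for GID1C and -0.91 for ATG8H. At 3 days 2 of the 3 lines were measured on low 25S arrays and at 6 days none. The part of the control signals in these turns was not tested.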

How the results depend on the processing

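No probe set passed for 6 days, 3 days or both days under the stricter filter (log2 6), quantile normalization, median centring, high 25S arrays only, the 25S class as covariate, trend and robust variances, or the replicate block (line as a random block; 0 calls in each, with 610 unadjusted over both days), nor over both days with the days averaged or without the 2 low 25S arrays. The empty vector is a line of its own, so a fixed block could not be fitted. Without a filter 116, 155 and 215 probe sets passed, of which 108, 138 and 186 were dim, with 3 on high 25S arrays and 176 for the difference between days. With the 8 non-induced arrays only, 1 passed at 6 days and 1 over both days, the same probe set without a listed gene; with median centring 1 passed on high 25S arrays (the unlisted one of the report). Leaving out each line gave 0 to 86 calls at 3 days, 0 to 33 over both days, 0 to 15 for the difference between days and 0 at 6 days and on high 25S arrays; every call came without line 9. Of the 33 over both days, 25 had the same sign on the high 25S arrays. With an unadjusted p under 0.05 in that limma fit as well, the number was 10. That fit shares the empty-vector arrays and 6 day line arrays with the fit without line 9. The shared sign is thus partly built in and is no separate check. Why the calls came only without line 9 was not tested. The alternatives for the difference between days, the high 25S fit, the genotypes standing apart and the shared direction, and the fit without the 2 low 25S arrays, were chosen after seeing the data.

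Probe sets in which a genotype stood apart numbered 59, 174, 40 and 173 (empty vector, lines 9, 17, 20) at a gap of 0.5, and 68, 413, 34 and 78 at 6 days alone; line 9 had 29 without a filter. One direction in the 4 high 25S differences was held by 3483 probe sets, where fewer differences have to match. Of 1832 values of named genes under alternatives, 1792 kept direction and side of the threshold, 8 came to pass and 32 changed sign, each from a difference that had not passed. On high 25S arrays only, and without the 2 low 25S arrays, the both-day difference became 0.0167 for AT3G13610, 0.12 for UGT74B1 and -0.25 for RR16. With the 25S covariate it became 0.15 for UGT74B1, -0.0367 for RR16, 0.0383 for EXPA7, -0.075 for AR791 and 0.0225 for AT1G02660, and with quantile normalization 0.0452 for SWEET10. Leaving out each line gave -0.0875 to 0.02 for AT1G68670, -0.17 to 0.14 for SAG101, -0.22 to 0.0375 for UGT74B1, -0.10 to 0.10 for PORB, -0.33 to 0.0925 for WRKY6, -0.005 to 0.54 for HAT2, -0.10 to 0.25 for RR16, -0.16 to 0.24 for GID1C, -0.39 to 0.0675 for SAG29, -0.35 to 0.24 for SWEET10 and -0.0675 to 0.36 for APL3. It gave -0.21 to 0.60 for AT5G14720, -0.45 to 0.53 for AT2G01480, -1.49 to 0.36 for petL, -0.15 to 0.58 for AT1G78450, -1.03 to 0.0325 for AT1G60590, -0.94 to 0.10 for AT1G02660 and -0.84 to 0.27 for AT1G50040.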
